A study of Mus musculus with 20 samples.

Results

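The genes described here encode enzymes that add or remove acetyl and methyl groups on histones, with their closest relatives. They were chosen by name from the gene count table: every row with a symbol of the Hdac, Sirt, Kdm, Kat, Kmt, Setd or Ezh series, without the X- and Y-linked demethylases Kdm5c, Kdm5d and Kdm6a, together with Crebbp and Ep300. This gave 58 of the 24421 genes in the table, of which 56 were expressed highly enough to be tested, among 12465 genes tested in all. The remaining genes, Hdac11 and Kdm4d, had 1 to 16 and 0 to 6 reads per library. The name covers some proteins whose best known substrates are not histones, such as Hdac6 (tubulin), Setd3 (actin) and the mitochondrial sirtuins Sirt3, Sirt4 and Sirt5.

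RNA from bone marrow-derived dendritic cells (BMDCs), antigen-presenting cells grown from mouse marrow, was sequenced in 20 libraries. Marrow of wild-type C57BL/6 mice was cultured for 8 days with the growth factor GM-CSF at 40 ng/mL, and cells of each of 5 mice (A to E) entered each of 4 groups. The cells received the bromodomain inhibitor I-BET151 (iBET) at 3.3 µM or 5% DMSO, and were stimulated for 4 hours with ovalbumin (Ova) or with ovalbumin bound to antibody in immune complexes (IC). These groups are called DMSO Ova, IBET Ova, DMSO IC and IBET IC, with 5 libraries in each; no group of unstimulated cells was analysed here, and the sources give the inhibitor either with the stimulus or shortly before it.

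Histones are acetylated by lysine acetyltransferases and deacetylated by zinc-dependent histone deacetylases (HDACs) and NAD-dependent sirtuins, and are methylated by SET-domain enzymes and demethylated by the Kdm proteins. Acetylated lysines are bound by bromodomain proteins of the BET family, which recruit factors that release paused RNA polymerase, and BET inhibitors displace them from chromatin. In dendritic cells and macrophages these enzymes are known for setting which inflammatory genes can be induced.

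Each library held 16447491 to 29245150 counted reads. Levels are given as CPM, the counts scaled to a common library total after TMM normalisation, and between genes as RPKM, the CPM per kilobase of exon; fold changes are on the log2 scale with their standard error, and "passed" means an adjusted p under 0.05 in the edgeR quasi-likelihood test over all 12465 genes. Of 8 markers used for dendritic cells, Itgax and Cd74 were at 1962 and 2661 CPM in DMSO Ova. Ccr7, Zbtb46 and Flt3 were at 461, 24.5 and 3.03 CPM there. Only Ciita and Flt3 passed, both lower with iBET under each stimulus. The log2 fold changes of Ciita were -4.99 ± 0.54 (Ova) and -5.51 ± 0.56 (IC), those of Flt3 -3.66 ± 0.54 and -2.91 ± 0.51. In a fit with the mouse as a block, 5 of the 8 were lower under each stimulus. In that fit 1 was higher in Ova-treated cells and 2 were higher in IC-treated cells. Neutrophil markers summed to 11.9 to 48.5 CPM, mast cell and basophil markers to 2.66 to 12.6 CPM, and 6 lymphocyte markers to at most 0.454 CPM in any library. Of the tested genes on the first pair of lists, Gata2 fell with iBET (log2 -1.22 ± 0.31 and -0.86 ± 0.31) and Mpo rose, from at most 0.119 CPM in any DMSO library to between 0.162 and 0.834 CPM with iBET. The summed level of 6 macrophage markers was 1298 to 1901 CPM in DMSO Ova and 891 to 1264 CPM in IBET Ova. In IC-treated cells it was 1443 to 1991 CPM with DMSO and 940 to 1479 CPM with iBET, which overlapped. Of these 6 markers, 3 were lower with iBET in Ova-treated and 2 in IC-treated cells, and 0 were higher. The summed level of 6 genes of dividing cells was 398 to 466 CPM in DMSO Ova and 307 to 463 CPM in DMSO IC. With iBET it was 298 to 430 CPM in IBET Ova and 249 to 328 CPM in IBET IC. The part of these markers in the results below was not tested. In these bulk samples, fewer cells of a type and less RNA per cell cannot be told apart. A main axis of difference between libraries, principal component 2 (14.9% of variance), separated mice A and B from mice C, D and E in every group.

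Among members with a listed promoter, those of the genes with the largest falls and rises under iBET are shown, so that the starts of falling and rising genes can be set side by side. RefSeq promoters (GRCm38.p6, 250 bases before to 50 after the start) were matched by symbol for 46 of the 58 genes and were looked up for the 3 genes that fell most and the 3 that rose most with iBET in Ova-treated cells: Sirt5, Hdac7, Kdm6b, Hdac6, Kdm4b and Kdm1b. Capitals mark, on either strand, the CpG-rich letters CGCG, the TATA box letters TATAAA, the CCAAT box, the GC box GGGCGG or the AP-1 site TGACTCA, and matches may overlap; for Hdac7, which has several listed starts, the first listed is shown.
Sirt5, chr13:43365285-43365584, plus strand: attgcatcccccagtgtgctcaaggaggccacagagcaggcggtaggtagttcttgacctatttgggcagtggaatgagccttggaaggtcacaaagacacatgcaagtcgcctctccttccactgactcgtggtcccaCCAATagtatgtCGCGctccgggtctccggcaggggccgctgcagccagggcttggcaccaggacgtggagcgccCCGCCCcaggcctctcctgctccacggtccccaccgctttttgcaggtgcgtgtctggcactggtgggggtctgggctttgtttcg
Hdac7, chr15:97831446-97831745, minus strand: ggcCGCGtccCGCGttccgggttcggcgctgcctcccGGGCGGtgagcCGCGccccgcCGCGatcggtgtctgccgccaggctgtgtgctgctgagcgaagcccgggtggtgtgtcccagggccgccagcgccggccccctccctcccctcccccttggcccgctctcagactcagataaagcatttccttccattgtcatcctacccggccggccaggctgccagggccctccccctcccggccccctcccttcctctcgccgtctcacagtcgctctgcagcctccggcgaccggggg
Hdac6, chrX:7947840-7948139, minus strand: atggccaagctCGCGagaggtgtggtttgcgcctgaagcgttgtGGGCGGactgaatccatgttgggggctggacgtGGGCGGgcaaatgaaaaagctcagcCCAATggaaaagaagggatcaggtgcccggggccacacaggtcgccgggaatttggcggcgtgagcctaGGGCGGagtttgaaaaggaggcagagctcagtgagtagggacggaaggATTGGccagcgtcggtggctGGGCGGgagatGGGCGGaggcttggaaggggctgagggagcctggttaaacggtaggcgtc
Kdm1b, chr13:47043249-47043548, plus strand: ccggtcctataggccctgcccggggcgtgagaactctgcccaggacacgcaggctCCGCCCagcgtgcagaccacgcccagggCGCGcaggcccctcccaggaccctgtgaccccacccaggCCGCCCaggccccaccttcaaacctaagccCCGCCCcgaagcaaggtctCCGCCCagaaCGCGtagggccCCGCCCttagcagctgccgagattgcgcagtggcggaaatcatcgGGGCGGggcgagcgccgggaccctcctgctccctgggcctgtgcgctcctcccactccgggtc
Each of these windows was read 5′ to 3′ on the strand of its gene. They held 15 CpG dinucleotides (Sirt5), 31 (Hdac7), 20 (Hdac6) and 26 (Kdm1b). The other 3 listed starts of Hdac7 held 6, 35 and 5 CpG dinucleotides, and the last of them held TGACTCA. Over the 65 promoters of the 46 genes, CGCG was found in 70.8% against 38% of all 32851 promoters, GGGCGG in 61.5% against 35.7%, CCAAT in 41.5% against 37.4%, TGACTCA in 9.23% against 5.2% and TATAAA in 3.08% against 13.6%. The median GC content was 61.7% against 52.7%, with a median of 23 CpG dinucleotides against 7. These are descriptions of the letters in the windows. No share was computed for promoters of the tested genes alone, so the differences cannot be read as particular to these enzymes.

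The first comparison asked how iBET changed these genes in cells given the same stimulus. The enzymes moved in both directions, and no more often than genes at large: 15 rose and 14 fell of 56 in Ova-treated cells, where 56.6% of all genes tested passed, 27.7% higher and 28.9% lower. In IC-treated cells 15 rose and 12 fell, where 56.1% of all genes passed, 27.1% higher and 29% lower. The median log2 fold change over the members was 0.039 with Ova and 0.017 with IC, against -0.0029 and -0.0054 over all genes. Most calls were shared: 26 members passed in the same direction under both stimuli (15 higher, 11 lower), which was 89.7% of those that passed with Ova and 96.3% of those with IC, against 86.7% and 87.5% over all genes; the comparisons share the mice but no library. Hdac8, Kdm6b and Sirt3 passed only with Ova and Kdm4a only with IC. The 5 iBET and 5 DMSO libraries did not overlap for 10 higher and 9 lower members with Ova (33.9% of the members, against 38% of all genes) and for 14 higher and 10 lower members with IC (42.9% against 42.8%). With each mouse as a block, 17 rose and 15 fell in Ova-treated cells, and in those given IC 18 rose and 13 fell, where 68.7% of all genes passed with Ova (33.5% higher, 35.2% lower) and 68% with IC (32.6% and 35.4%), against 57.1% and 55.4% of the members; Hdac1, Kdm2b and Kdm4a were added with Ova and Hdac4, Kat7, Kdm2b and Kdm6b with IC, and none was lost.

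**Figure D1:**
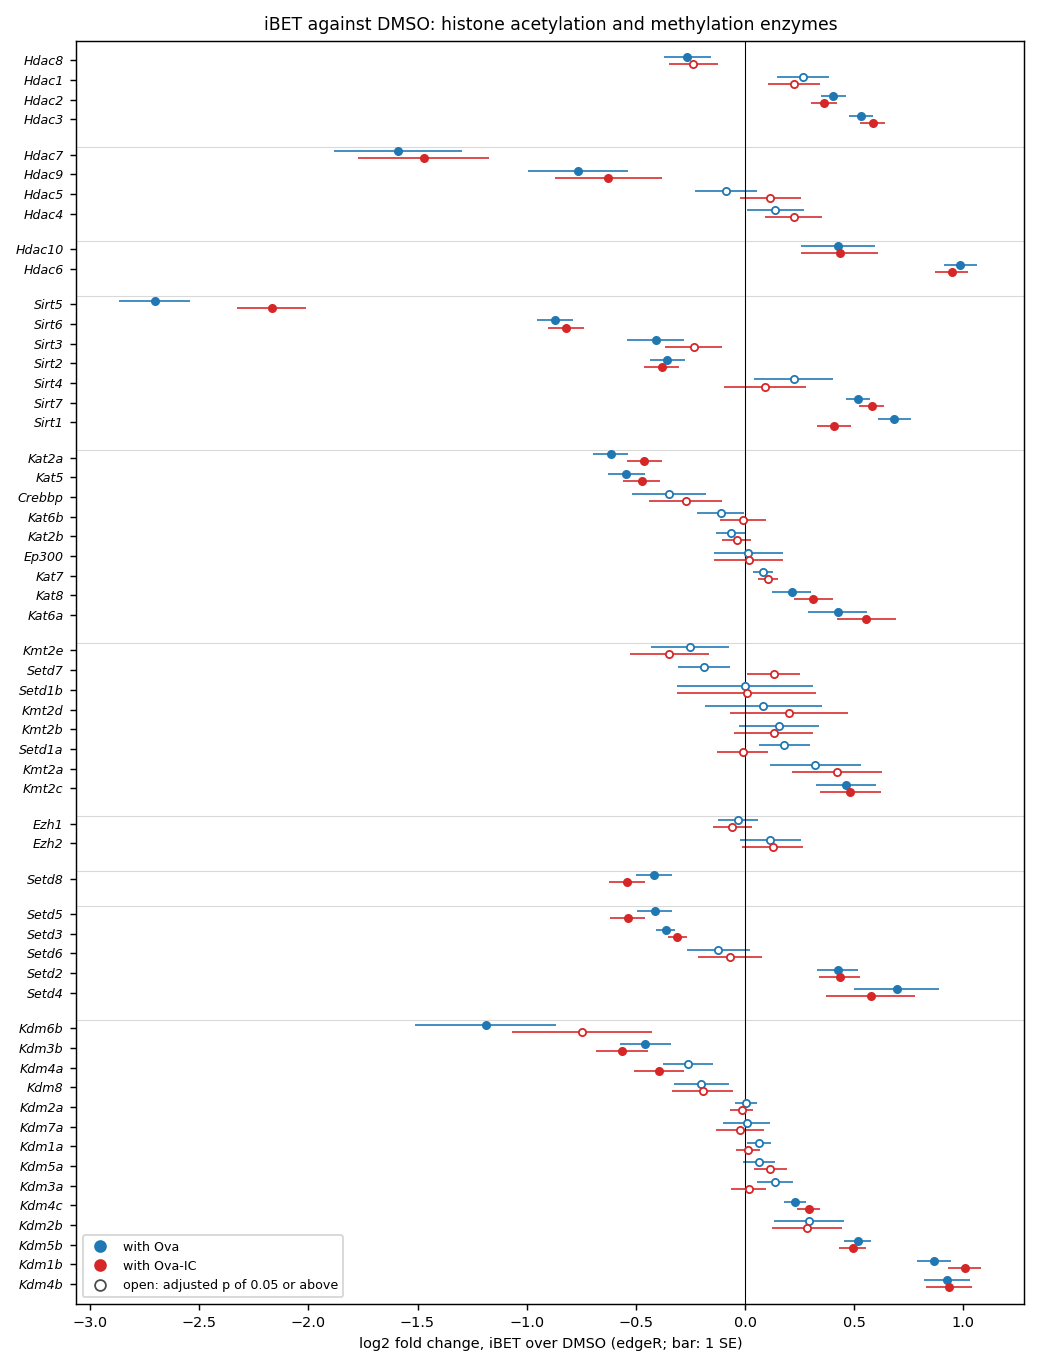
Log2 fold change of each of the 56 tested genes, iBET over DMSO, in Ova-treated (blue) and IC-treated (red) cells, grouped by role, with bars of 1 SE; filled points passed the edgeR test at an adjusted p under 0.05. Sirt5 and Hdac7 lie farthest to the left and Hdac6, Kdm4b and Kdm1b farthest to the right, and the paired points of most genes lie close together.

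Of the 10 tested zinc-dependent deacetylases, 4 rose and 3 fell with Ova, and 4 rose and 2 fell with IC. Among all genes tested, 27.7% rose and 28.9% fell with Ova, and 27.1% and 29% with IC. Of the class I enzymes that work in the nuclear NuRD, Sin3, CoREST and NCoR complexes, Hdac3 and Hdac2 rose and Hdac1 did not pass. Hdac3, the catalytic subunit of the NCoR/SMRT corepressors, was at 38.1, 37.4, 36.6, 35.8 and 33.5 CPM in DMSO Ova (mice A to E) and at 55.6, 49.4, 54.1, 47.2 and 55.7 CPM in IBET Ova. It was at 34.6, 37.6, 37.99, 38.1 and 39.7 CPM in DMSO IC and at 54.9, 56.9, 58.6, 55.3 and 56.3 CPM in IBET IC. All iBET libraries were above all DMSO libraries, and Hdac3 rose by 0.53 ± 0.056 on the log2 scale in Ova-treated cells (adjusted p = 1.24e-07, edgeR) and 0.58 ± 0.056 with IC (adjusted p = 3.10e-08). Hdac2 rose by 0.41 ± 0.059 and 0.36 ± 0.059, also without overlap between groups. Its close relative Hdac1 had 0.26 ± 0.12 with Ova (adjusted p = 0.065, edgeR; 0.0166 with the mouse as a block) and 0.22 ± 0.12 with IC (adjusted p = 0.115). Hdac8, an X-linked class I enzyme that deacetylates cohesin, fell with Ova (log2 -0.27 ± 0.11, adjusted p = 0.0412, edgeR) and had -0.24 ± 0.11 with IC (adjusted p = 0.0764); the Ova call was lost on leaving out mouse A, B, D or E.

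Class IIa deacetylases, which shuttle between cytoplasm and nucleus and act largely as partners of MEF2 factors, had 2 members that fell and none that rose. The shares over all genes were 28.9% lower and 27.7% higher with Ova, and 29% and 27.1% with IC. Hdac7 (chr15:97792664-97844502 in GRCm38) was at 2.64, 4.03, 6.69, 5.92 and 5.39 CPM in DMSO Ova and 1.01, 1.30, 2.16, 1.98 and 1.76 CPM in IBET Ova. The IC groups were at 2.65, 2.95, 3.45, 3.71 and 4.83 CPM with DMSO and 0.703, 0.795, 2.02, 1.24 and 1.72 CPM with iBET. Mouse A had the lowest level in each group, and no iBET library reached the lowest DMSO library of the same stimulus. Hdac7 fell with Ova (log2 -1.59 ± 0.29, adjusted p = 0.000118, edgeR), a 3.01-fold lower level, and with IC (log2 -1.47 ± 0.30, adjusted p = 0.000343). Hdac9 fell (log2 -0.77 ± 0.23 and -0.63 ± 0.24) from a very low level of 0.0871 ± 0.0165 RPKM (mean ± SD, n = 5) in DMSO Ova; with IC its adjusted p of 0.0352 (edgeR) was lost on leaving out any of mice A, C, D and E. Hdac4 and Hdac5, better expressed at 3.16 ± 0.393 and 6.21 ± 1.02 RPKM, had 0.14 ± 0.13 and -0.088 ± 0.14 with Ova and did not pass.

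Class IIb holds only 2 genes, and both rose, where 27.7% of all genes rose with Ova and 27.1% with IC. Of the 2, Hdac10 was the less steady. Hdac6 (chrX:7930120-7947889), the cytoplasmic tubulin deacetylase, was at 10.1, 11.3, 12.01, 10.8 and 11.03 CPM in DMSO Ova and 21.05, 20.01, 25.7, 21.5 and 21.2 CPM in IBET Ova. Its IC levels were 8.69, 7.81, 8.59, 8.58 and 8.49 CPM with DMSO and 15.7, 15.7, 18.3, 14.9 and 16.7 CPM with iBET. The order DMSO IC, DMSO Ova, IBET IC, IBET Ova held with no overlap between neighbours. Hdac6 rose 1.98-fold with Ova (log2 0.99 ± 0.075, adjusted p = 1.46e-09, edgeR) and 1.93-fold with IC (log2 0.95 ± 0.076, adjusted p = 2.91e-09). Hdac10, a polyamine deacetylase at 0.716 ± 0.0694 RPKM, rose by 0.42 ± 0.17 and 0.43 ± 0.17 with adjusted p values of 0.0393 and 0.0411 (edgeR); leaving out mouse A, D or E ended the first call and leaving out A, B, C or E the second.

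The sirtuins held the largest fall among the 56 genes under both stimuli. Sirt5 (chr13:43365496-43395203), a mitochondrial enzyme that removes succinyl, malonyl and glutaryl groups from lysines, was at 3.59, 4.15, 4.19, 3.92 and 4.46 CPM in DMSO Ova and 0.606, 0.542, 0.525, 0.856 and 0.544 CPM in IBET Ova. It was at 2.76, 3.04, 3.55, 2.58 and 4.10 CPM in DMSO IC and 0.666, 0.682, 0.673, 0.763 and 0.779 CPM in IBET IC. Every DMSO library was above 2 CPM and every iBET library below 1 CPM, and the fall was 6.52-fold with Ova (log2 -2.70 ± 0.16, adjusted p = 4.76e-11, edgeR) and 4.49-fold with IC (log2 -2.17 ± 0.16, adjusted p = 7.42e-10). The fall was as large in mice A and B alone (-2.73 with Ova, -2.08 with IC) as in mice C, D and E alone (-2.63 and -2.17).

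Among the nuclear sirtuins, Sirt6 fell while Sirt1 and Sirt7 rose. Sirt6, a chromatin-bound H3K9 and H3K56 deacetylase, was at 11.1, 13.04, 12.2, 12.4 and 11.7 CPM in DMSO Ova and 5.78, 6.56, 6.13, 7.25 and 7.32 CPM in IBET Ova, with no overlap, and fell with Ova (log2 -0.87 ± 0.082, adjusted p = 2.56e-08, edgeR) and with IC (log2 -0.82 ± 0.082, adjusted p = 5.71e-08). Sirt7, a nucleolar H3K18 deacetylase, was at 50.4, 53.9, 48.4, 50.2 and 46.5 CPM in DMSO Ova and 71.4, 65.3, 70.7, 71.8 and 77.7 CPM in IBET Ova, again without overlap, and rose by 0.52 ± 0.057 and 0.58 ± 0.057 (adjusted p = 2.16e-07 and 4.60e-08, edgeR). Sirt1, which deacetylates p53 and NF-κB p65 as well as histones, was at 24.3, 24.5, 27.6, 27.4 and 26.98 CPM in DMSO Ova and 37.97, 48.1, 44.7, 42.4 and 37.1 CPM in IBET Ova. It was at 25.3, 24.9, 26.7, 28.1 and 23.8 CPM in DMSO IC and 32.4, 34.5, 30.7, 36.96 and 36.4 CPM in IBET IC. All iBET libraries were above all DMSO libraries, with a rise of 0.68 ± 0.077 with Ova (adjusted p = 2.82e-07, edgeR) and 0.41 ± 0.077 with IC (adjusted p = 0.000141). Sirt2, mostly cytoplasmic, fell (log2 -0.36 ± 0.08 and -0.38 ± 0.08). The mitochondrial Sirt3 fell with Ova (log2 -0.41 ± 0.13, adjusted p = 0.011, edgeR), a call that was lost without mouse B (log2 -0.27) or D, and 12.7% of its exonic bases also lie in exons of Psmd13 or Ric8a. Sirt4 did not pass under either stimulus.

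**Figure D2:**
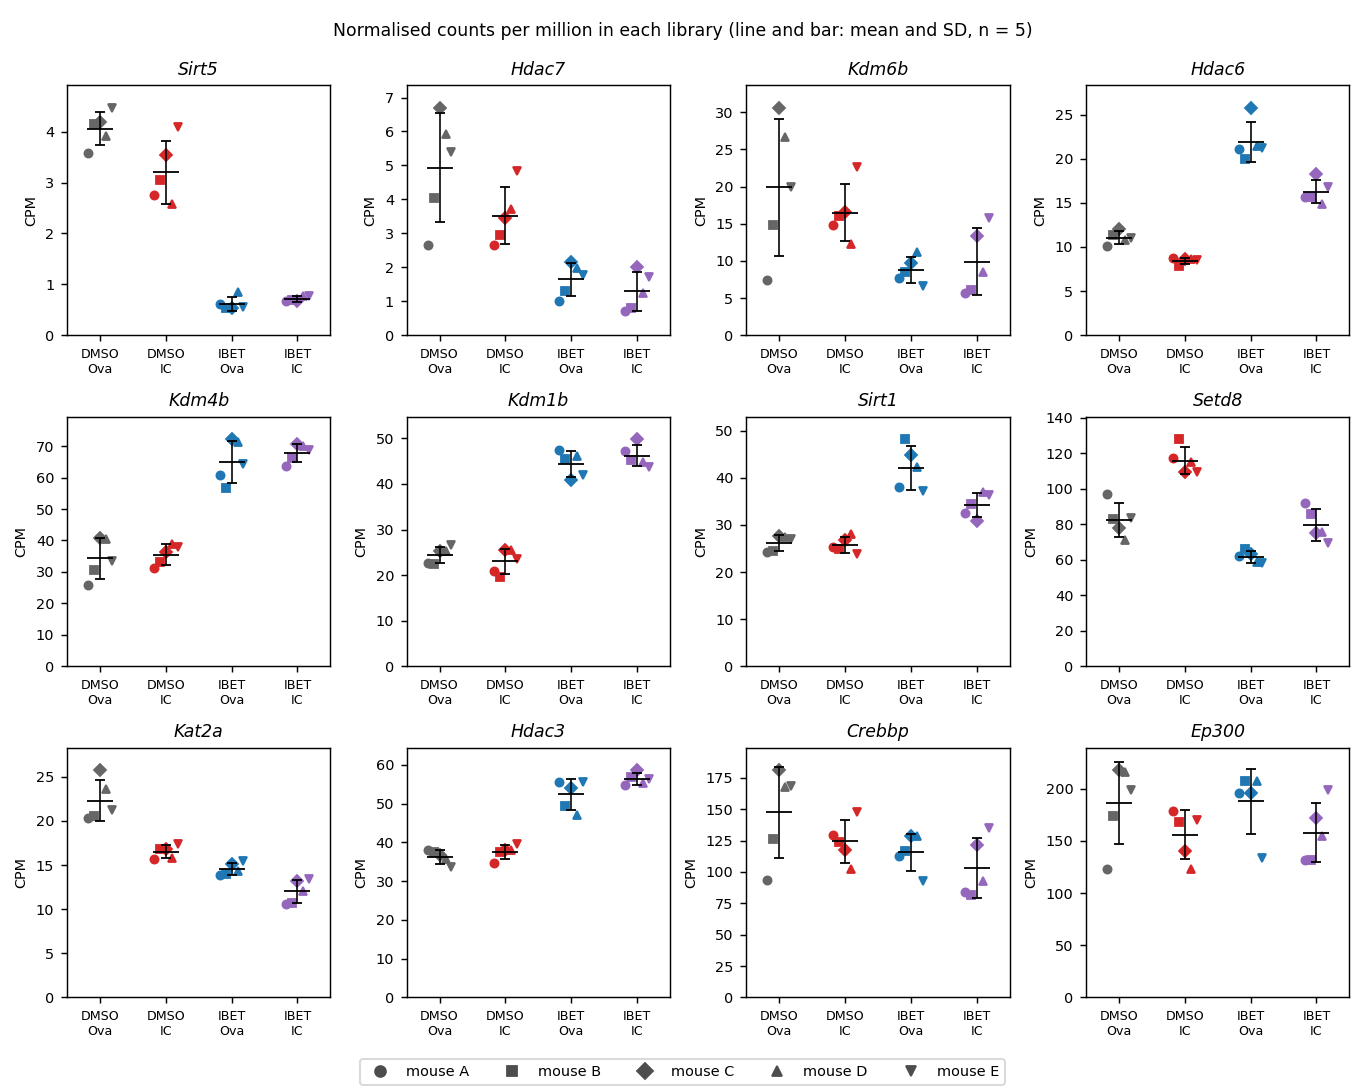
Normalised CPM of 12 genes in each of the 20 libraries by group, one marker shape per mouse, with the mean and SD (n = 5) in black and axes starting at 0. Sirt5 and Hdac7 are lower and Hdac6, Kdm4b and Kdm1b higher in all iBET libraries, whereas Crebbp and Ep300 overlap between groups.

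Of the 9 acetyltransferases, 2 rose and 2 fell under each stimulus. Kat2a (GCN5), the catalytic subunit of the SAGA and ATAC complexes, was at 20.3, 20.6, 25.7, 23.6 and 21.3 CPM in DMSO Ova and 13.9, 13.99, 15.2, 14.3 and 15.4 CPM in IBET Ova. In IC-treated cells it was at 15.7, 16.8, 16.8, 15.8 and 17.4 CPM with DMSO and 10.6, 10.7, 13.2, 12.1 and 13.4 CPM with iBET. The groups did not overlap under either stimulus, and Kat2a fell with Ova (log2 -0.62 ± 0.08, adjusted p = 1.88e-06, edgeR) and with IC (log2 -0.46 ± 0.081, adjusted p = 6.52e-05). Its paralogue Kat2b (PCAF), which can take the same place in these complexes, had -0.065 ± 0.066 (adjusted p = 0.413, edgeR) and -0.039 ± 0.066 (adjusted p = 0.635); the mouse annotation holds a processed pseudogene of Kat2b and others of Kat6b, whose reads could not be separated here. Kat5 (Tip60), of the NuA4 complex, fell (log2 -0.54 ± 0.084 and -0.47 ± 0.083) without overlap, with 12.1% of its exonic bases shared with Rnaseh2c. Kat8 (MOF), which acetylates H4K16, rose by 0.21 ± 0.088 and 0.31 ± 0.088; the first, with an adjusted p of 0.0452 (edgeR), was lost without mouse A, C, D or E and was 0.34 without mouse B. Kat6a (MOZ) rose by 0.42 ± 0.13 and 0.56 ± 0.13, and its paralogue Kat6b had -0.11 ± 0.11 and -0.0098 ± 0.11 and did not pass. The Kat6a groups overlapped with Ova (mouse E of IBET Ova at 116 CPM, mouse C of DMSO Ova at 124 CPM) but not with IC. Kat6a was lowest in mouse A of DMSO Ova, D of DMSO IC and E of IBET Ova, and highest of IBET IC in mouse E. In these libraries the long genes described below deviated together. How far this entered its rise was not tested. Within mice A and B the rise of Kat6a was 0.79 with Ova and 0.28 with IC (adjusted p = 0.16, edgeR), and that in mice C, D and E was 0.26 (adjusted p = 0.0598) and 0.76.

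The paired coactivators Crebbp and Ep300, which acetylate H3K27 at enhancers, did not pass. Crebbp was at 93.6, 126, 181, 168 and 169 CPM in DMSO Ova and 113, 116, 129, 128 and 92.6 CPM in IBET Ova, and the groups overlapped. Crebbp had -0.35 ± 0.17 on the log2 scale with Ova (adjusted p = 0.085, edgeR) and -0.27 ± 0.17 with IC (adjusted p = 0.178). Ep300 was at 123, 174, 217, 216 and 199 CPM in DMSO Ova and 196, 207, 196, 207 and 133 CPM in IBET Ova, with mouse E far below the other iBET libraries. Ep300 had 0.016 ± 0.16 with Ova and 0.017 ± 0.16 with IC, and it changed sign under several of the alternatives tried. Both genes deviated together within a library, and their ratio, given with the related pairs, was steadier than either level.

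The genes grouped here as H3K4 methyltransferases, from the SET1 and MLL name series with the separate enzyme Setd7, had 1 gene of 8 that rose and none that fell. The grouping does not show that each of them, such as Kmt2e, has this activity. Over all genes tested, 27.7% rose and 28.9% fell with Ova, and 27.1% and 29% with IC. All of the 8 but Setd7 belong to the set described below that deviated together within libraries, so few calls do not show steady levels. Kmt2c (MLL3), which monomethylates H3K4 at enhancers, rose by 0.46 ± 0.14 with Ova (adjusted p = 0.00802, edgeR) and 0.48 ± 0.14 with IC (adjusted p = 0.00611), with 0.93 and 0.33 in mice A and B and 0.23 and 0.61 in mice C, D and E. Kmt2d (MLL4), its partner at enhancers, was at 96.1, 205, 285, 249.6 and 220.3 CPM in DMSO Ova and 222, 237, 254, 241 and 164 CPM in IBET Ova, with 0.084 ± 0.27, and did not pass. Kmt2a and Kmt2b had 0.32 ± 0.21 and 0.16 ± 0.18, and Setd1a, of whose exonic bases 51.8% lie in an overlapping read-through gene model, had 0.18 ± 0.12.

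Crebbp, Ep300, Kmt2a to Kmt2e, Setd1a and Setd1b deviated from their group means together, a set of 9 genes picked after its values were seen. In 6 of the 20 libraries (mouse A of DMSO Ova, D of DMSO IC, E of IBET Ova, and A, B and D of IBET IC) all 9 were below their group means, and in 7 all 9 were above. The median deviation of the 9 ran from -0.69 in mouse A of DMSO Ova to 0.42 in mouse E of IBET IC on the log2 scale, against -0.13 and 0.0663 for the other 47 members in the same libraries. These transcripts are long, with a median exonic length of 13540 bases against 5817 for the other members; whether RNA quality or library preparation moved with them was not tested.

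**Figure D3:**
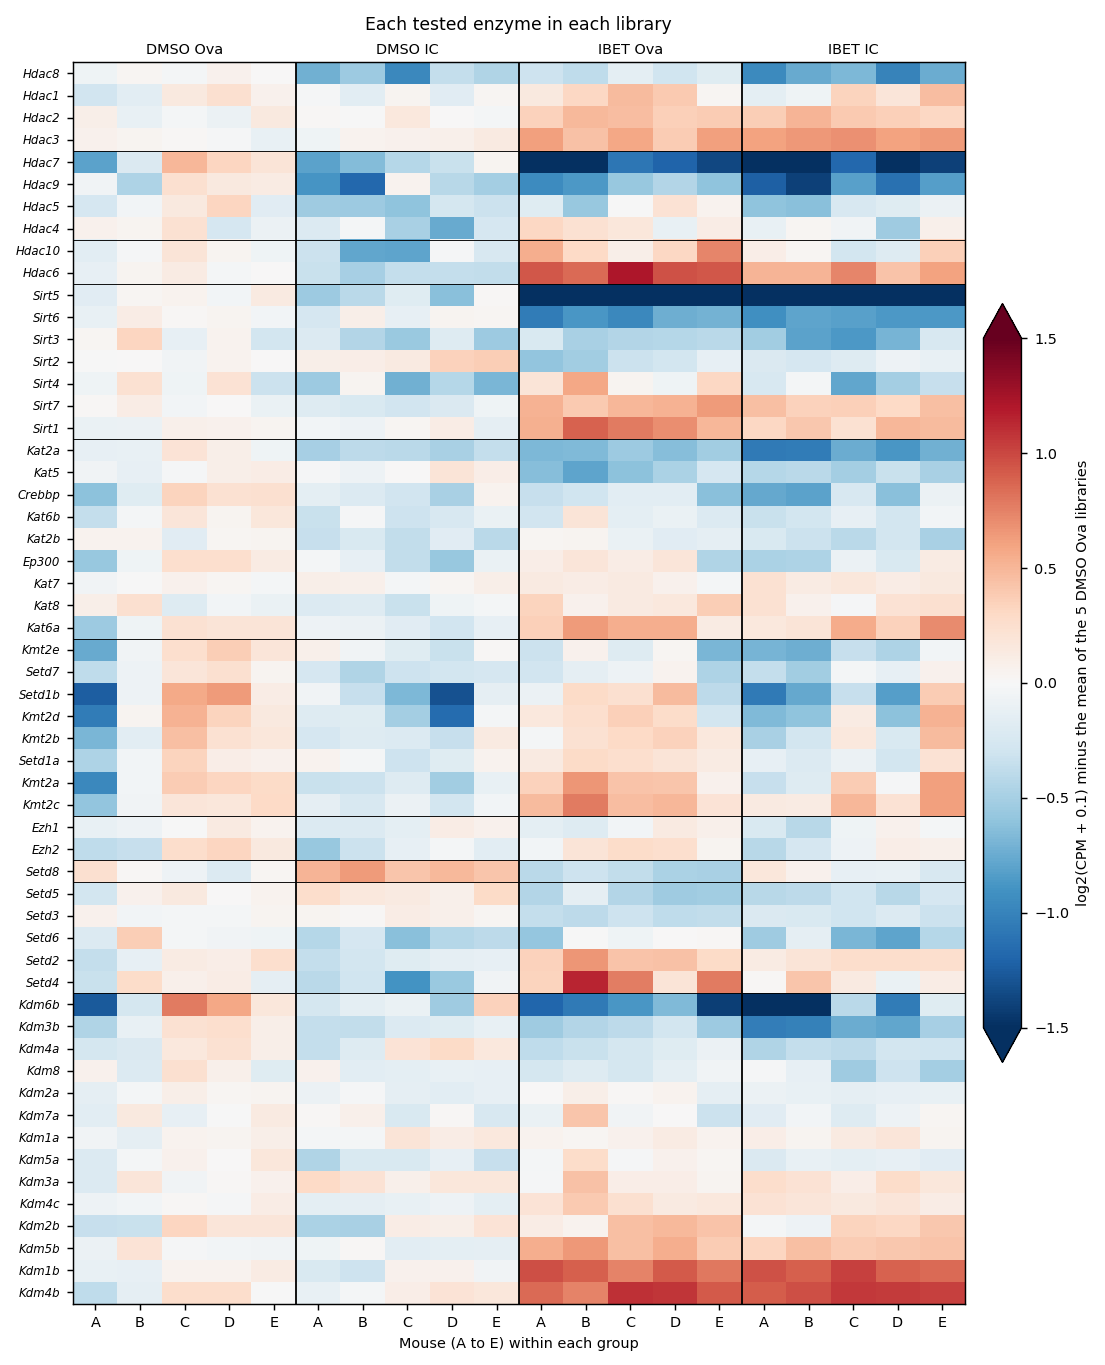
Log2(CPM + 0.1) of the 56 tested genes in each library, minus the mean of the 5 DMSO Ova libraries, with genes grouped by role and libraries ordered by group and mouse; the colour scale ends at 1.5 in either direction. The iBET groups stand out for Sirt5, Hdac7, Kdm4b and Kdm1b, while the rows from Kmt2e to Kmt2c change together from library to library within groups.

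The remaining methyltransferases gave single moved genes. The Polycomb H3K27 methyltransferases did not pass: Ezh2 was at 17.1, 17.5, 26.9, 27.9 and 24.6 CPM in DMSO Ova and 21.7, 25.6, 26.95, 26.7 and 22.97 CPM in IBET Ova, which overlapped, with 0.12 ± 0.14 and 0.13 ± 0.14, and Ezh1 had -0.03 ± 0.091 and -0.058 ± 0.091. The interval of 2 SE around each of these estimates included 0. Setd8, the H4K20 monomethyltransferase active in dividing cells, was at 96.7, 82.8, 77.8, 70.9 and 83.3 CPM in DMSO Ova and 61.97, 66.3, 63.2, 58.9 and 58.2 CPM in IBET Ova. In IC-treated cells it was at 117, 128, 109, 115 and 109 CPM with DMSO and 91.8, 85.5, 75.3, 75.8 and 69.5 CPM with iBET. The groups did not overlap, and Setd8 fell with Ova (log2 -0.42 ± 0.082, adjusted p = 0.000238, edgeR) and with IC (log2 -0.54 ± 0.082, adjusted p = 1.31e-05). Setd2, which lays down H3K36 trimethylation behind elongating polymerase, rose by 0.42 ± 0.093 and 0.43 ± 0.093 without overlap (adjusted p = 0.000659 and 0.000541, edgeR). Setd3 fell (log2 -0.36 ± 0.043 and -0.31 ± 0.043), and Setd5, a SET-domain protein bound to the NCoR complex, fell likewise (log2 -0.41 ± 0.081 and -0.54 ± 0.081). Setd4 rose by 0.69 ± 0.20 and 0.57 ± 0.20 from 0.309 ± 0.0526 RPKM in DMSO Ova, with overlapping groups, and its call with IC (adjusted p = 0.0214, edgeR) was lost without mouse C.

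Of the 14 tested demethylases, 4 rose and 2 fell under each stimulus, and the largest changes were in genes for different marks. Among all genes, 27.7% rose and 28.9% fell with Ova, and 27.1% and 29% with IC. Kdm1b (chr13:47043499-47085279), the flavin-dependent H3K4 demethylase LSD2, was at 22.6, 22.4, 25.2, 25.2 and 26.5 CPM in DMSO Ova and 47.5, 45.5, 40.9, 46.2 and 42.01 CPM in IBET Ova. Its IC levels were 20.8, 19.6, 25.5, 25.4 and 23.5 CPM with DMSO and 47.2, 45.3, 49.8, 44.9 and 43.8 CPM with iBET. The groups lay far apart, and Kdm1b rose 1.82-fold (log2 0.87 ± 0.076, adjusted p = 1.00e-08, edgeR) and 2.01-fold (log2 1.01 ± 0.076, adjusted p = 1.25e-09); 9.19% of its exonic bases lie in exons of Dek. Its paralogue Kdm1a (LSD1), of the CoREST complex, had 0.063 ± 0.056 and 0.013 ± 0.056 and did not pass, at 12.9 ± 0.804 RPKM against 4.44 ± 0.329 RPKM for Kdm1b in DMSO Ova.

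Kdm4b, an H3K9 and H3K36 demethylase, was at 25.9, 30.8, 40.7, 40.5 and 33.6 CPM in DMSO Ova and 60.8, 56.7, 72.2, 71.4 and 64.3 CPM in IBET Ova. It was at 31.2, 33.04, 36.3, 38.97 and 37.96 CPM in DMSO IC and 63.5, 66.2, 70.6, 69.96 and 68.9 CPM in IBET IC. Every iBET library was above the highest DMSO library of its stimulus, and Kdm4b rose 1.90-fold and 1.91-fold (log2 0.92 ± 0.11 and 0.93 ± 0.11, adjusted p = 3.63e-07 and 2.96e-07, edgeR). Kdm4c rose by 0.23 ± 0.052 and 0.29 ± 0.052. Kdm4a had -0.26 ± 0.11 with Ova (adjusted p = 0.0585, edgeR; 0.00353 with the mouse as a block) and fell with IC (log2 -0.40 ± 0.11, adjusted p = 0.00602), which was lost without mouse C. The H3K4 demethylase Kdm5b (JARID1B) rose by 0.52 ± 0.062 and 0.49 ± 0.062 without overlap, while Kdm5a had 0.064 ± 0.074 and 0.12 ± 0.074 and did not pass. The H3K9 demethylase Kdm3b fell (log2 -0.46 ± 0.12 and -0.56 ± 0.12).

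Kdm6b (JMJD3, chr11:69398508-69413675), the H3K27 demethylase that inflammatory signals induce in macrophages, had the largest spread between mice, relative to its mean, of the tested members in DMSO Ova. It was at 7.36, 14.8, 30.6, 26.7 and 19.95 CPM in DMSO Ova and 7.76, 8.46, 9.68, 11.2 and 6.61 CPM in IBET Ova. In IC-treated cells it was at 14.8, 16.02, 16.6, 12.3 and 22.7 CPM with DMSO and 5.74, 6.14, 13.4, 8.54 and 15.7 CPM with iBET. The groups overlapped under both stimuli. Mouse A of DMSO Ova lay within the range of IBET Ova, and mice A to D of IBET Ova within that of DMSO Ova. Mice A and D of DMSO IC lay within the range of IBET IC, and mice C and E of IBET IC within that of DMSO IC. Kdm6b was lowest in mouse A of DMSO Ova, D of DMSO IC and E of IBET Ova. In these libraries all 9 long genes described above were below their group means. It was highest of IBET IC in mouse E, where all 9 were above. How far this shared deviation entered its fall was not tested. Kdm6b fell with Ova (log2 -1.19 ± 0.32, adjusted p = 0.00381, edgeR) and had -0.75 ± 0.32 with IC (adjusted p = 0.0532; 0.00799 with the mouse as a block and 0.0374 with DESeq2). The larger fall was in mice C, D and E with Ova and in mice A and B with IC, a difference that was not tested: with Ova it was -0.43 in mice A and B (adjusted p = 0.225, edgeR) and -1.45 in mice C, D and E (adjusted p = 0.000339), and with IC -1.36 (adjusted p = 0.00311) and -0.43 (adjusted p = 0.172).

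Many of these enzymes come in pairs of near relatives, and a ratio of 2 genes in the same library cancels that library's scaling, apart from a small prior count. For 18 such pairs the change in the log2 ratio under iBET was tested with an exact two-sided permutation test of 5 against 5 libraries, whose smallest possible p is 0.00794, and adjusted over the 36 tests. Of the 18 ratios, 11 passed with Ova and 11 with IC. No share was computed for pairs of other genes, so these counts cannot be read as particular to related enzymes. Of all single genes tested, 56.6% and 56.1% had passed in the comparison of iBET with DMSO. The permutation test leaves the mouse out of account, and a paired one over 5 mice could not go below a p of 0.0625. Of the ratios that did not pass, Kdm2a to Kdm2b was lower in 5 of 5 mice under each stimulus (-0.30 ± 0.084 and -0.32 ± 0.15), and with IC Hdac4 to Hdac5 (0.12 ± 0.041) and Hdac6 to Hdac10 (0.50 ± 0.29) were higher in 5 of 5. The Sirt6 to Sirt7 ratio moved by -1.38 ± 0.11 (SD over 5 mice) with Ova and -1.39 ± 0.059 with IC, and was lower in 5 of 5 mice (adjusted exact permutation p = 0.015 for each). The Kdm4a to Kdm4b ratio moved by -1.19 ± 0.14 and -1.31 ± 0.18, and that of Kdm1a to Kdm1b by -0.80 ± 0.12 and -0.995 ± 0.15. The Kat5 to Kat8 ratio moved by -0.77 ± 0.16 and -0.78 ± 0.11, and in the opposite direction Kat6a rose relative to Kat6b by 0.55 ± 0.19 and 0.55 ± 0.20, and Kdm3a relative to Kdm3b by 0.57 ± 0.18 and 0.59 ± 0.12. Since some of these genes had passed in the comparison above, the ratios are not separate evidence for them.

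The ratio of Crebbp to Ep300 gave a difference that the single genes did not. It moved by -0.34 ± 0.042 with Ova and -0.30 ± 0.12 with IC, lower in 5 of 5 mice under each stimulus (adjusted exact permutation p = 0.015). Crebbp was thus lower relative to Ep300 in iBET-treated cells, while neither gene passed alone. The ratios of Hdac1 to Hdac2 (-0.14 ± 0.20 and -0.15 ± 0.28), Ezh1 to Ezh2 (-0.18 ± 0.33 and -0.19 ± 0.14) and Setd1a to Setd1b (0.095 ± 0.42 and 0.0073 ± 0.55) did not pass.

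**Figure D4:**
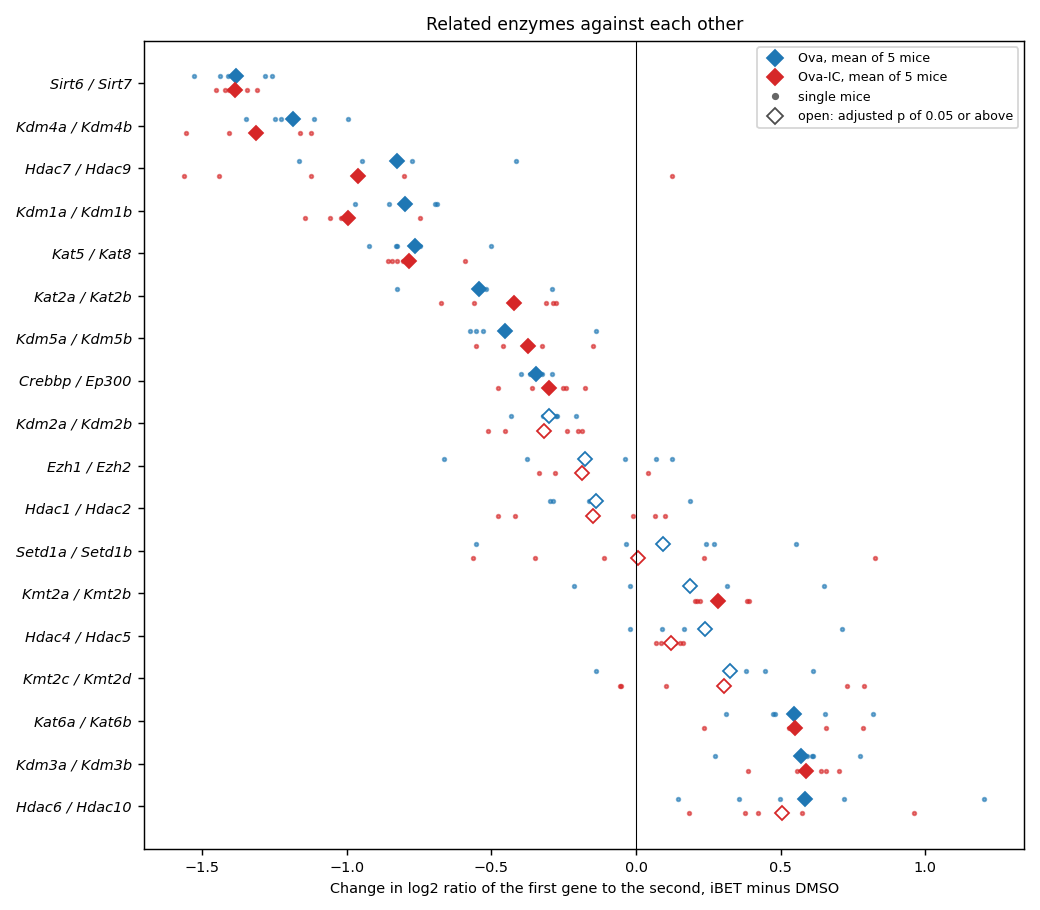
Change in the log2 ratio of the first gene to the second, iBET minus DMSO, for 18 pairs of related enzymes; diamonds are means of 5 mice, dots single mice, blue Ova and red IC, and filled diamonds passed the exact permutation test after adjustment. The Sirt6 to Sirt7 and Kdm4a to Kdm4b ratios lie below -1 in the mean, and the dots of Crebbp to Ep300 cluster tightly below 0.

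The second comparison asked how IC stimulation changed the same genes relative to soluble Ova. With DMSO 1 member rose and 9 fell of 56, where 20.3% of all genes tested passed, 9.59% higher and 10.7% lower; with iBET 1 rose and 7 fell, where 11.8% passed, 5.19% higher and 6.63% lower. The members that fell were thus 16.1% and 12.5% of those tested, and the median log2 fold changes of the members were -0.19 and -0.13 against -0.024 and -0.014 for all genes. These medians depended on the fit and the mice. With surrogate variables the member medians were -0.044 with DMSO and -0.13 with iBET, against -0.0086 and -0.011 for all genes. In mice A and B they were -0.058 and -0.28, and in mice C, D and E -0.29 and -0.071. The groups did not overlap for 2 higher and 7 lower members with DMSO (16.1%, against 12.4% of all genes) and for 1 higher and 7 lower with iBET (14.3% against 10%). With the mouse as a block the counts were 3 higher and 20 lower with DMSO (5.36% and 35.7% of the members, against 18.3% and 19.8% of all genes) and 2 higher and 15 lower with iBET (3.57% and 26.8%, against 14.2% and 14.7%). The block added, with DMSO, Kdm3a and Sirt2 among the higher and Ezh2, Hdac4, Hdac7, Hdac9, Hdac10, Kdm3b, Setd2, Setd4, Setd7, Sirt4 and Sirt5 among the lower members (adjusted p = 0.00153 for Hdac4 to 0.0421 for Hdac10, edgeR). With iBET it added Sirt2 among the higher and Ezh2, Hdac4, Hdac5, Hdac10, Kdm5a, Setd2, Setd4 and Setd6 among the lower (adjusted p = 0.0094 for Kdm5a to 0.0478 for Hdac10), and it ended no call. Leaving out mouse C brought the main counts to 5 with DMSO and 4 with iBET, and leaving out mouse A, B or D brought the count with iBET to 5, 4 and 5. Scaling by library size alone moved the median of all genes to -0.13 and -0.12 and turned their calls with DMSO from 9.59% higher and 10.7% lower to 4.67% and 20.8%, so that the directions below are relative to the median gene.

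Setd8 was the one member that rose with IC under both treatments, by 0.49 ± 0.082 with DMSO (adjusted p = 0.000345, edgeR) and 0.37 ± 0.082 with iBET (adjusted p = 0.00634). With the falls under iBET given above, its level in IBET IC (79.6 ± 8.91 CPM, mean ± SD, n = 5) lay near that in DMSO Ova (82.3 ± 9.48 CPM), and the summed markers of dividing cells, as given above, were lower in IBET IC than in DMSO Ova. Of these 6 markers, 1 fell with IC in DMSO-treated cells and 2 in iBET-treated cells, and 0 rose. With iBET, 1 fell in Ova-treated and 5 in IC-treated cells, and 0 rose. Of the genes that fell under both treatments, Hdac8 was at 5.47, 5.87, 5.60, 6.02 and 5.75 CPM in DMSO Ova and 3.45, 3.90, 2.89, 4.46 and 4.18 CPM in DMSO IC. It fell with DMSO (log2 -0.60 ± 0.11, adjusted p = 0.000697, edgeR) and with iBET (log2 -0.57 ± 0.11, adjusted p = 0.00202), without overlap. Hdac6 fell (log2 -0.39 ± 0.077 and -0.43 ± 0.074), opposite to its rise with iBET. Both SAGA acetyltransferases fell, Kat2a (log2 -0.43 ± 0.079 and -0.28 ± 0.081) and Kat2b (log2 -0.30 ± 0.066 and -0.28 ± 0.066), of which Kat2b had not passed in the comparison of iBET with DMSO.

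The other calls were seen under 1 treatment only, without a test showing that the treatments differed; with the mouse as a block, Hdac5, Setd6, Kdm5a, Sirt4 and Kdm3b passed under both. With DMSO, Hdac5 fell (log2 -0.46 ± 0.14), the RelA methyltransferase Setd6 (log2 -0.44 ± 0.15), Sirt3 (log2 -0.40 ± 0.13), Kdm5a (log2 -0.28 ± 0.074) and Sirt7 (log2 -0.20 ± 0.057). With iBET, Sirt4 fell (log2 -0.61 ± 0.18), Kdm3b (log2 -0.37 ± 0.12) and Sirt1 (log2 -0.30 ± 0.076), whereas Sirt1 had -0.022 ± 0.077 with DMSO. Each of these 8 calls was lost on leaving out at least 2 of the 5 mice in turn, which always included mouse C. The call for Kat2a with iBET was lost on leaving out any one mouse, and that for Kat2b with iBET on leaving out mouse B.

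**Figure D5:**
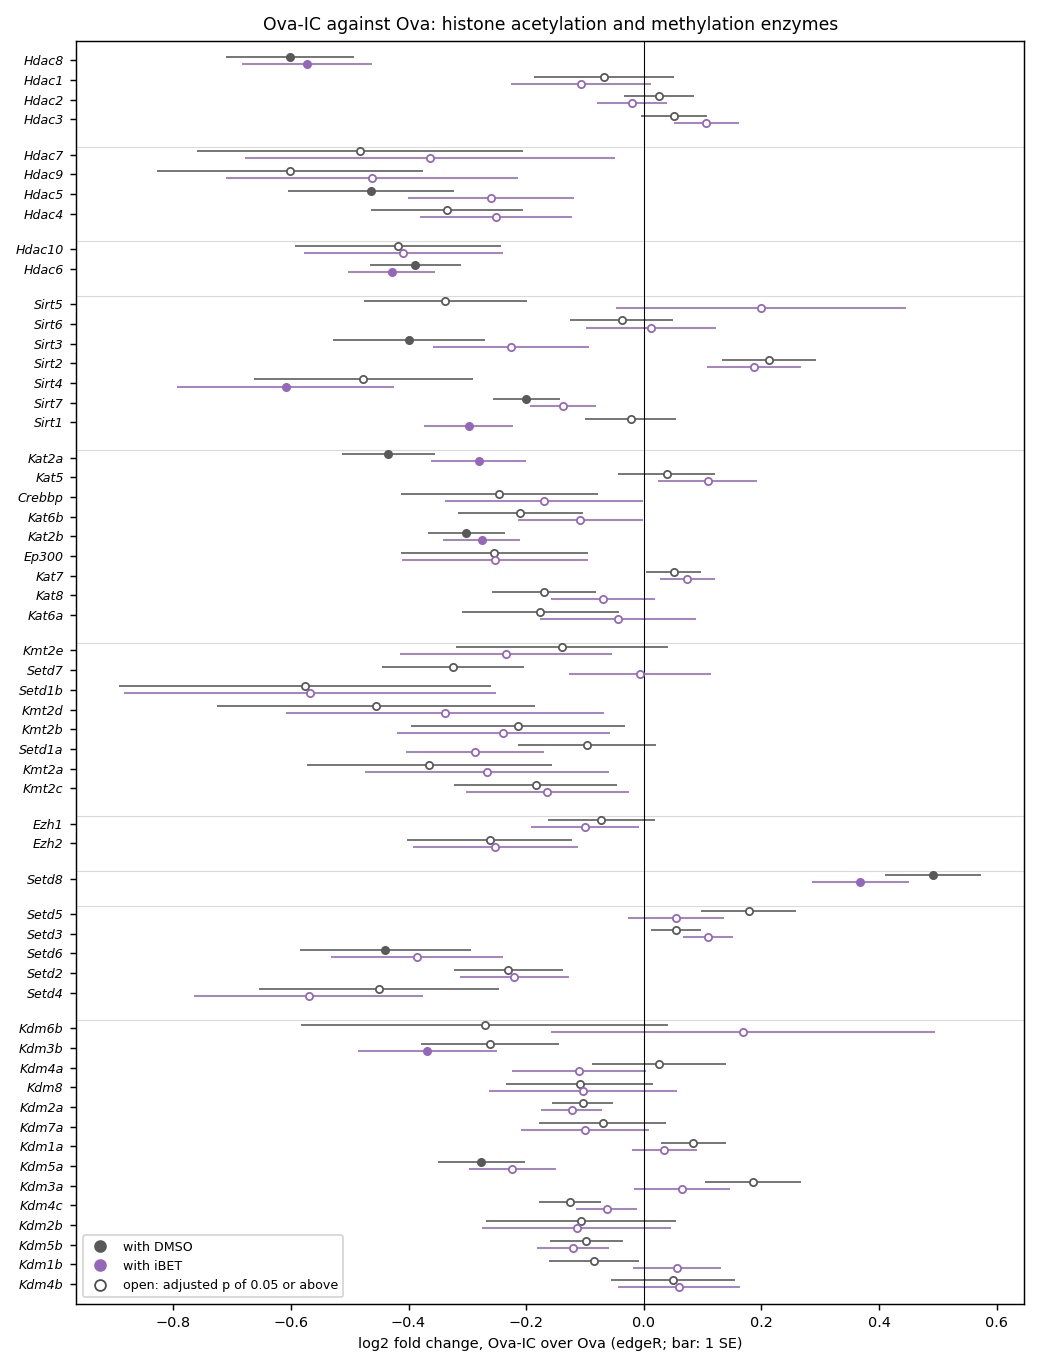
Log2 fold change of each of the 56 tested genes, IC over Ova, with DMSO (grey) and with iBET (purple), grouped by role, with bars of 1 SE; filled points passed the edgeR test at an adjusted p under 0.05. Most points lie left of 0, Setd8 is the one filled point to the right, and the range is much narrower than for iBET.

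The median fall with IC was larger among members under 10 CPM than among the others. Of the 12 members under 10 CPM in IBET Ova, libraries that take no part in the DMSO comparison, 12 had a log2 fold change below 0 with DMSO and their median was -0.43, whereas the 29 members above 50 CPM had a median of -0.14 with 20 below 0. The 15 members between 10 and 50 CPM had a median of -0.13, so that no further step was seen above 10 CPM. With iBET, by the level in DMSO Ova, the medians were -0.40 in 10 members, -0.0878 in 20 and -0.12 in 26. Over all tested genes the medians with DMSO were -0.12, -0.0243 and 0.0533 from the lowest to the highest levels. Over the 56 genes, the Pearson r between log2 CPM in the outside libraries and the IC effect was 0.44 with DMSO and 0.37 with iBET, with Spearman's rho of 0.34 and 0.23, against rho of 0.24 and 0.21 over all 12465 genes. These are descriptions across genes, which share libraries and, in part, mice.

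The third comparison, an interaction term, asked whether the effect of iBET differed between IC and Ova. No member passed by edgeR, with or without the mouse block, nor by DESeq2, where 5 genes of all 12465, or 0.0401% (0.0241% higher and 0.016% lower), passed by edgeR and 102 with the block. Unadjusted, 1 of 56 members had a p under 0.05 (1.79%) against 543 of all genes (4.36%). The members with the smallest unadjusted p were Setd7, Sirt1 and Sirt5, with differences of 0.32 ± 0.17, -0.28 ± 0.11 and 0.54 ± 0.26 on the log2 scale and adjusted p of 1, 0.982 and 1 (edgeR).

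By level per length, the members spanned a wide range. In DMSO Ova, Kdm4a was highest at 23.5 ± 3.57 RPKM (mean ± SD, n = 5), followed by Setd3 at 21.4 ± 0.728, Kat7, the H3K14 acetyltransferase, at 16.2 ± 0.510, Setd8 at 15.5 ± 1.79 and the H3K9 and H3K27 demethylase Kdm7a at 14.3 ± 1.41. The neighbours in this order lay within 1 SD of each other, apart from Setd3 and Kat7. Crebbp at 10.9 ± 2.70 and Ep300 at 13.03 ± 2.75 RPKM differed by less than their SD. Hdac1 was at 11.2 ± 1.66, Hdac3 at 8.95 ± 0.431 and Hdac2 at 7.93 ± 0.627 RPKM, and Ezh1 at 8.39 ± 0.563 was above Ezh2 at 3.42 ± 0.770 by more than their spread. At the low end were Kdm4d at 0.0218 ± 0.00743, Hdac11 at 0.0905 ± 0.0364 and Hdac9 at 0.0871 ± 0.0165 RPKM, with Setd4 at 0.309 ± 0.0526 and Sirt5 at 0.667 ± 0.0539. The 2 genes that fell most with iBET, Sirt5 and Hdac7 (0.730 ± 0.238), were among the lower ones. Over the 56 genes, the level in the DMSO libraries of the other stimulus was set against the iBET effect. Pearson r with log2 CPM was 0.217 with Ova and 0.198 with IC, and Spearman's rho was 0.0219 and 0.0555, a description across genes.

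Other enzymes of the same pathways, and the subunits they work with, were listed for comparison. Of 26 tested enzymes outside the name series, 6 rose and 10 fell with iBET in Ova-treated cells and 7 rose and 9 fell in IC-treated cells. The H3K9 methyltransferase Ehmt2 (G9a) fell (log2 -0.93 ± 0.083 and -0.91 ± 0.083), while its partner Ehmt1 rose by 0.29 ± 0.068 and 0.46 ± 0.068. The demethylase Phf2 fell (log2 -1.43 ± 0.12 and -1.55 ± 0.12), the H3K36 methyltransferase Nsd1 fell (log2 -0.57 ± 0.097 and -0.65 ± 0.097), and the H3K79 methyltransferase Dot1l rose by 0.74 ± 0.19 and 0.51 ± 0.19. Of 27 tested complex partners, 11 rose and 6 fell with Ova and 12 rose and 7 fell with IC. Trrap, the scaffold shared by the SAGA and NuA4 complexes of Kat2a and Kat5, rose by 1.26 ± 0.13 and 1.22 ± 0.13, the NuRD subunit Mta3 fell (log2 -1.55 ± 0.15 and -1.57 ± 0.15), and the Sin3 corepressor Sin3a rose by 0.66 ± 0.048 and 0.73 ± 0.048. These counts stand beside the 56.6% and 56.1% of all genes that passed.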

How the data were processed

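Gene counts of 20 BMDC libraries were analysed. The authors deposited raw counts per gene: paired-end reads were trimmed, aligned with HISAT2 to mm10 and counted with featureCounts (Trim Galore and FastQC are also named in the submitters' processing notes), and the strand setting of the counting is not given in the sources used here. A deposited table of normalised values was not used. Samples were grouped by the labels, and the same letter marked the same mouse.

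Genes were filtered with filterByExpr, scaled by TMM and fitted over all 4 groups in edgeR 4.0.16 (R 4.3.3) with the quasi-likelihood test and Benjamini-Hochberg adjustment. The study's own methods name DESeq2, and the sva package for removing batch effects, without giving the design. Here edgeR was the main test on the raw counts, with DESeq2 and surrogate variables as alternatives. SE was the log2 fold change divided by the root of the F statistic, or by the t value of the same p where edgeR raised the p to its Poisson bound. RPKM used exonic lengths from GENCODE M21 (GRCm38), where Setd8 is listed as Kmt5a. Ratios of related genes used log2 CPM with a prior count of 2. No count column was left unmatched.

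Deviations from group means in libraries of the same mouse correlated at 0.524 on average (lowest 0.307 over 30 pairs; -0.127 between different mice), so the mouse pairs the samples, and a fit with the mouse as a block was run. Other alternatives were DESeq2 1.42.0, its size factors, library size alone, no low-count filter, 3 surrogate variables (sva 3.50.0), leaving out each mouse, and, added after the data were seen, mice A and B or mice C, D and E alone. On simulated data of 12340 genes for the iBET comparison with Ova, edgeR recovered 70% of 1.5-fold and 99% of 2-fold changes with 3.43% false calls. In that simulation few genes were changed, all above a mean of 5 CPM, and libraries were drawn independently without a mouse effect. Its rates therefore do not carry over to these data, or to members at lower levels such as Sirt5, Hdac9 and Setd4. Genes named in full were the largest changes that passed (up to 10 each way for iBET, up to 5 each way for IC, the 3 smallest interaction p) and 12 reference enzymes; other members were named where they clarified a family. The members, the gene lists and these rules were chosen with earlier results of these data known.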

Additional observations from a re-analysis of the deposited data

Results flagged for a closer look

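For 36 named members, each of the 4 groups of 5 libraries was examined for a library whose gap to its nearest neighbour was a large part of the group's range (Dixon's 95% criterion). Of 144 groups, 9 were marked, and chance marks about 1 in 20. The largest gaps were those of Ep300, at 133.5 CPM in mouse E of IBET Ova where the other mice were at 196 to 207 CPM, and of Kat2b, at 42.24 CPM in mouse C of DMSO Ova where the others were at 48.3 to 49.4 CPM. Hdac6 was at 7.807 CPM in mouse B of DMSO IC, below the others, and at 25.73 CPM in mouse C of IBET Ova, above them. Mouse B was highest in its group for Kdm5b at 66.93 CPM in DMSO Ova, for Setd5 at 89.57 CPM in IBET Ova and for Setd6 at 6.403 CPM in DMSO Ova. Setd6 was at 3.272 CPM in mouse A of IBET Ova, below the others, and Sirt5 was at 0.8556 CPM in mouse D of IBET Ova, above the others but still under every DMSO library.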

How the results depend on the processing

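The numbers of members that passed with iBET (29 with Ova, 27 with IC) stayed within 1.5 times under every alternative run, and no member passed the interaction under any. The IC counts did not: from 10 with DMSO, they became 23 with the mouse block (41.1% of members, 38.1% of all genes), 24 with library size alone (42.9%, 25.5%), 16 with surrogate variables (28.6%, 32.6%), 0 in mice A and B (all genes 4%), 23 in mice C, D and E (41.1%, 27.2%), and 5 to 13 on leaving out a mouse. From 8 with iBET, they became 17 with the block (30.4%, 28.9%), 18 with library size alone (32.1%, 18.8%), 5 without the filter (8.62%, 6.21%), 15 with surrogate variables (26.8%, 24.9%), 0 in mice A and B (all genes 2.37%), 4 in mice C, D and E (7.14%, 9.48%), and 4 to 6 on leaving out a mouse. Fits on fewer mice have fewer samples; otherwise the cause was not tested. The block ended no member's call in the iBET and IC comparisons.

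In the iBET and IC comparisons, no member that had passed changed sign on leaving out a mouse or in either set of mice. Among the values given for the iBET comparison, sign changes with Ova were Crebbp in mice A and B (0.060); Ep300 with library size alone (-0.038), without mouse A or B (range on leaving out a mouse -0.12 to 0.14; -0.011 without B) and in mice C, D and E (-0.19); Ezh1 without mouse B (range -0.045 to 0.022) and in mice C, D and E (0.046); Ezh2 in mice C, D and E (-0.0074); Kmt2d without mouse A (-0.098) and in mice C, D and E (-0.15); Hdac5 without mouse B (0.032) and in mice C, D and E (0.026); Kat6b in mice A and B (0.16); and Kdm5a in mice C, D and E (-0.005). With IC, they were Ep300 with library size alone (-0.028), surrogate variables (-0.13), without mouse C (-0.038), D or E (-0.047; range -0.052 to 0.13) and in mice A and B (-0.38); Ezh1 in mice C, D and E (0.0023); Kat2b in mice A and B (0.026); Kat6b without mouse B (0.077) and in mice C, D and E (0.097); and Kdm1a with library size alone (-0.038), without mouse A or D (-0.0022; range -0.011 to 0.047) and in mice C, D and E (-0.0085). The interaction of Setd7 was -0.076 in mice A and B. Depth kept Hdac11 and Kdm4d, with at most 16 and 6 reads per library, from being tested.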
